A study of Mus musculus with 6 samples.

Results

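The 41 genes described here mark the cells of blood and lymph vessels and of the vessel wall. They were taken by gene symbol from the count tables of 6 mouse tumours, which hold 23183 symbols, and all 41 were found. They fall into 23 genes of blood vessel endothelium, 5 of lymphatic endothelium, 7 of the Notch pathway and 6 used as markers of pericytes. The tumours were grown from UV2237M, a murine fibrosarcoma line (a cancer of connective tissue cells) labelled wild type. The 3 treated tumours were given gold nanoclusters (GNC), tiny clusters of gold atoms used in photothermal therapy because they warm when lit, at day 1 and 7, and near-infrared (NIR) light was shone on them. The 3 untreated tumours came from the same line and received neither. The series asks what this therapy does to gene expression in the tumour. No group had nanoclusters or irradiation alone, so the effects of the particles and of the light cannot be told apart. The labels give no strain, sex or age of host, no time from irradiation to harvest, and do not say whether each tumour came from its own animal, so the p-values measure the spread between these samples.

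Endothelial cells line the vessels and are held together by junction proteins such as VE-cadherin, and they keep their identity through transcription factors of the ETS and SOX families. In sprouting vessels the ligand DLL4 on a leading cell activates NOTCH receptors on its neighbours, which then switch on HES and HEY repressors. Lymphatic endothelium depends on the transcription factor PROX1. Pericytes wrap small vessels and are held there by signals through the receptor PDGFRB. Several of these markers are shared with other cells of a tumour. PDGFRA, PDGFRB and CD34 also mark fibroblasts, and LYVE1 and ANPEP are also found on macrophages. In whole tumours, fewer cells of a type and less RNA per cell cannot be told apart.

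Between 4680295 and 8019294 counts were assigned to genes per library. Untreated 2 stood apart, with a biological coefficient of variation over all genes of 33.7% with it and 17.3% without it, so the main fold changes are given with and without it. Levels are CPM, a gene's count scaled to a fixed total, on library sizes adjusted by TMM, a scaling that assumes most genes are alike between libraries. Fold changes are log2 ratios of treated over untreated with their standard error (SE) from edgeR's quasi-likelihood test, adjusted by Benjamini-Hochberg over all tested genes.

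No vessel marker passed the test between treated and untreated tumours when all 6 libraries were used. Of the 41 genes, 39 passed the filter on low counts and were tested. At an adjusted p under 0.05 edgeR called 0 of the 39, and 0% of all 12517 tested genes. At an unadjusted p under 0.05 there were 0 members as well, against 8.17% of all tested genes. No member had treated values that all lay above, or all below, the untreated values, which was the case in 20.8% of all tested genes. The smallest unadjusted p of a member was 0.0635, for *Hey1*. Over the same 6 libraries DESeq2 and limma-voom, each with its own adjustment, called 0 members as well, against 0.455% of all tested genes for DESeq2. At an unadjusted p under 0.05 there was 1 member by DESeq2 (*Notch3*), against 10.3% of all tested genes, and 0 by limma-voom, against 7.56%. The fitted fold change lay above 0 in 30 of the 39 and below 0 in 9, against 49.9% above 0 among all tested genes. Without untreated 2 it lay above 0 in 23 and below 0 in 16, against 50.1% above 0. The median log2 fold change of the 39 was 0.25 with all libraries and 0.16 without untreated 2, where that of all tested genes was 0.00 in both cases.

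**Figure D1:**
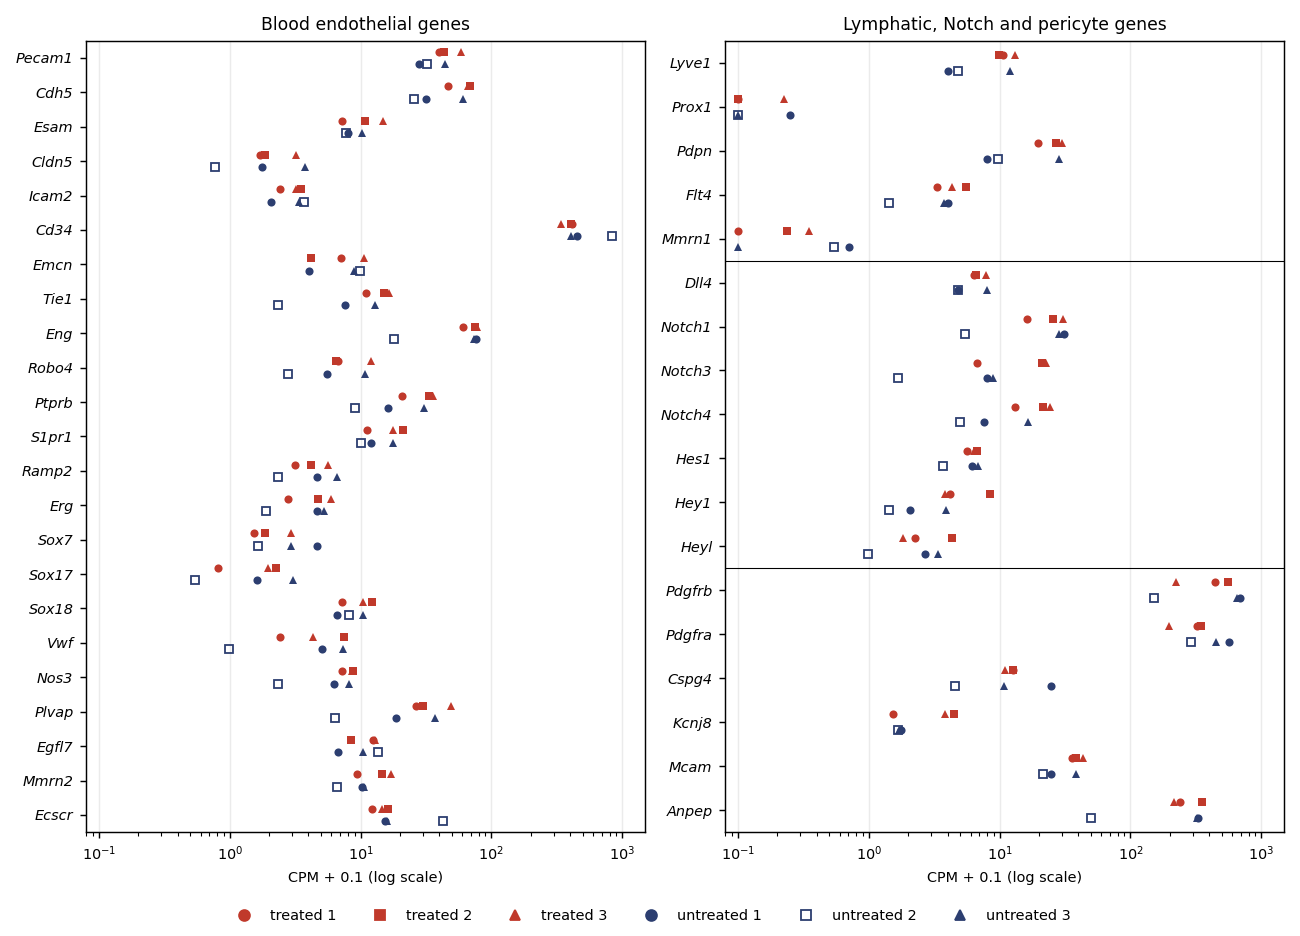
Level of each of the 41 genes in each library, as CPM plus 0.1 on a log axis, with treated libraries in red above untreated libraries in blue and the library untreated 2 as an open square. In every row the red and blue points overlap, and the open square is the lowest of the 6 in many rows but the highest in *Cd34*, *Ecscr*, *Egfl7* and *Icam2*.

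The genes differed far more from each other than between the groups. Set per kilobase of the longest annotated transcript, *Cd34* was highest in treated tumours with 126 CPM per kb, against 184 in untreated ones. *Pdgfrb* followed with 75 against 91.7 CPM per kb, *Anpep* with 70.7 against 61.6 and *Pdgfra* with 42.1 against 63.8. These 4 genes stood above the rest. The next in treated tumours was *Eng* with 20.8 CPM per kb, against 16.4 in untreated tumours, and the junction gene *Cdh5* had 15.1 against 9.82. At the lower end were *Sox17*, with 0.489 against 0.504 CPM per kb, and *Prox1*, with 0.00524 against 0.00637.

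The junction and surface genes of blood endothelium were present in every library. *Pecam1*, which codes for an adhesion molecule between endothelial cells and on platelets and leukocytes, had 40, 43.3 and 58.1 CPM in treated 1, 2 and 3, against 27.7, 31.9 and 44.2 CPM in untreated 1, 2 and 3. *Cdh5*, the gene of VE-cadherin, had 46.7, 68.1 and 66.5 CPM in treated 1, 2 and 3, against 31.5, 25.7 and 60.6 CPM in untreated 1, 2 and 3. In both genes untreated 3 lay among the treated libraries, while untreated 1 and 2 lay below each of them. The log2 fold changes were 0.45 ± 0.26 (SE, adjusted p 0.609) for *Pecam1* and 0.62 ± 0.36 (adjusted p 0.608) for *Cdh5*, and 0.38 ± 0.24 and 0.38 ± 0.28 without untreated 2.

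*Cd34*, a sialomucin of endothelium, blood progenitors and fibroblasts, had 409.8, 405 and 339 CPM in treated 1, 2 and 3, against 448, 839 and 403 CPM in untreated 1, 2 and 3. Untreated 2 was the highest by far, and the groups overlapped through untreated 3. The log2 fold change was -0.55 ± 0.32 (adjusted p 0.608) and -0.15 ± 0.13 without untreated 2 (adjusted p 0.543). *Esam*, a junction adhesion molecule, averaged 10.9 ± 3.76 CPM in treated and 8.54 ± 1.42 CPM in untreated tumours (SD, n = 3 each), and *Emcn*, a surface sialomucin of veins and capillaries, 7.21 ± 3.25 against 7.53 ± 3.15 CPM. *Icam2*, a ligand for leukocyte integrins, and *Cldn5*, a tight junction claudin, were low, at 2.94 ± 0.557 against 2.95 ± 0.861 CPM and 2.16 ± 0.823 against 2 ± 1.53 CPM. The fitted 95% interval for *Cldn5* reached from -1.40 to 1.52 on the log2 scale, so a difference of 1 log2 unit either way was not excluded.

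Among the endothelial receptors *Eng*, the coreceptor endoglin for TGF-beta and BMP ligands, drew the most counts. It had 60.2, 75.2 and 77.8 CPM in treated 1, 2 and 3, against 76.4, 17.9 and 73.8 CPM in untreated 1, 2 and 3. All libraries except untreated 2 lay close together, and the log2 fold change was 0.34 ± 0.50 (adjusted p 0.809), or -0.08 ± 0.14 once untreated 2 was left out. *Tie1*, an orphan receptor that modulates angiopoietin signalling, had 10.9, 15 and 16.4 CPM in treated 1, 2 and 3, against 7.56, 2.23 and 12.8 CPM in untreated 1, 2 and 3. Untreated 3 again lay within the treated range. The log2 fold change of *Tie1* was 0.88 ± 0.54 (adjusted p 0.623), the highest of the blood endothelial genes, and 0.46 ± 0.29 without untreated 2.

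*Ptprb*, the phosphatase VE-PTP that restrains the receptor TIE2, averaged 29.8 ± 8.09 CPM in treated and 18.6 ± 11.1 CPM in untreated tumours (SD, n = 3 each). *S1pr1*, the sphingosine-1-phosphate receptor that steadies the vessel barrier, averaged 16.6 ± 5.02 against 13.2 ± 3.97 CPM, and *Robo4*, a receptor of the roundabout family, 8.31 ± 3.14 against 6.27 ± 4.06 CPM. *Ramp2*, the partner of the adrenomedullin receptor, averaged 4.24 ± 1.29 against 4.42 ± 2.14 CPM. In all 6 receptor genes untreated 2 had the lowest value of the 6 libraries, as it did in 39.6% of all tested genes.

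The transcription factors of endothelial identity were read at low counts. *Sox18*, a SOX factor of both vessel types, had 7.15, 12.1 and 10.3 CPM in treated 1, 2 and 3, against 6.5, 8.03 and 10.3 CPM in untreated 1, 2 and 3, with overlapping groups and a log2 fold change of 0.25 ± 0.31 (adjusted p 0.775). *Sox7* averaged 2.02 ± 0.747 CPM in treated and 2.97 ± 1.49 CPM in untreated tumours, *Sox17* 1.59 ± 0.77 against 1.63 ± 1.25 CPM and the ETS factor *Erg* 4.38 ± 1.59 against 3.83 ± 1.79 CPM (SD, n = 3 each). Treated 1 was the lowest treated library in all 4 factors. *Sox7* had the lowest log2 fold change of the 4, -0.56 ± 0.50 with all libraries and -0.84 ± 0.46 without untreated 2 (adjusted p 0.703 and 0.350).

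Of the secreted, matrix and other endothelial products, *Plvap*, which forms the diaphragms of fenestrated vessels, had 26.3, 29.9 and 48.9 CPM in treated 1, 2 and 3, against 18.5, 6.25 and 36.9 CPM in untreated 1, 2 and 3. Untreated 3 exceeded 2 of the 3 treated libraries. The log2 fold change was 0.76 ± 0.58 (adjusted p 0.665), and 0.33 ± 0.34 without untreated 2. *Ecscr*, a surface protein that affects endothelial migration, had 12.2, 16.2 and 14.5 CPM in treated 1, 2 and 3, against 15.4, 42.4 and 15.8 CPM in untreated 1, 2 and 3. Its log2 fold change was -0.77 ± 0.43 (adjusted p 0.607), the lowest of all members, and -0.13 ± 0.20 without untreated 2. *Mmrn2*, an extracellular matrix protein of vessels, averaged 13.6 ± 3.95 CPM in treated and 9.05 ± 2.24 CPM in untreated tumours (SD, n = 3 each), and *Egfl7*, a secreted regulator of vessel tubes, 11.1 ± 2.48 against 10.1 ± 3.37 CPM. *Nos3*, the endothelial nitric oxide synthase, averaged 8.15 ± 0.863 against 5.51 ± 2.99 CPM and *Vwf*, the clotting carrier von Willebrand factor, 4.63 ± 2.53 against 4.37 ± 3.22 CPM.

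Exons of 7 members overlap another annotated gene, and since the strand setting of the counting is not given, their counts are less certain. The partners are *Atg9b* for *Nos3*, *Fpgs* for *Eng*, *Agpat2* for *Egfl7*, *Vps25* for *Ramp2*, *1700066B19Rik* for *Ecscr*, *Gm16897* for *Cd34* and *Gm14207* for *Dll4*. *Vps25*, on the same strand as *Ramp2*, had 39.2 to 50.2 CPM in treated and 51.4 to 62 CPM in untreated libraries.

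**Figure D2:**
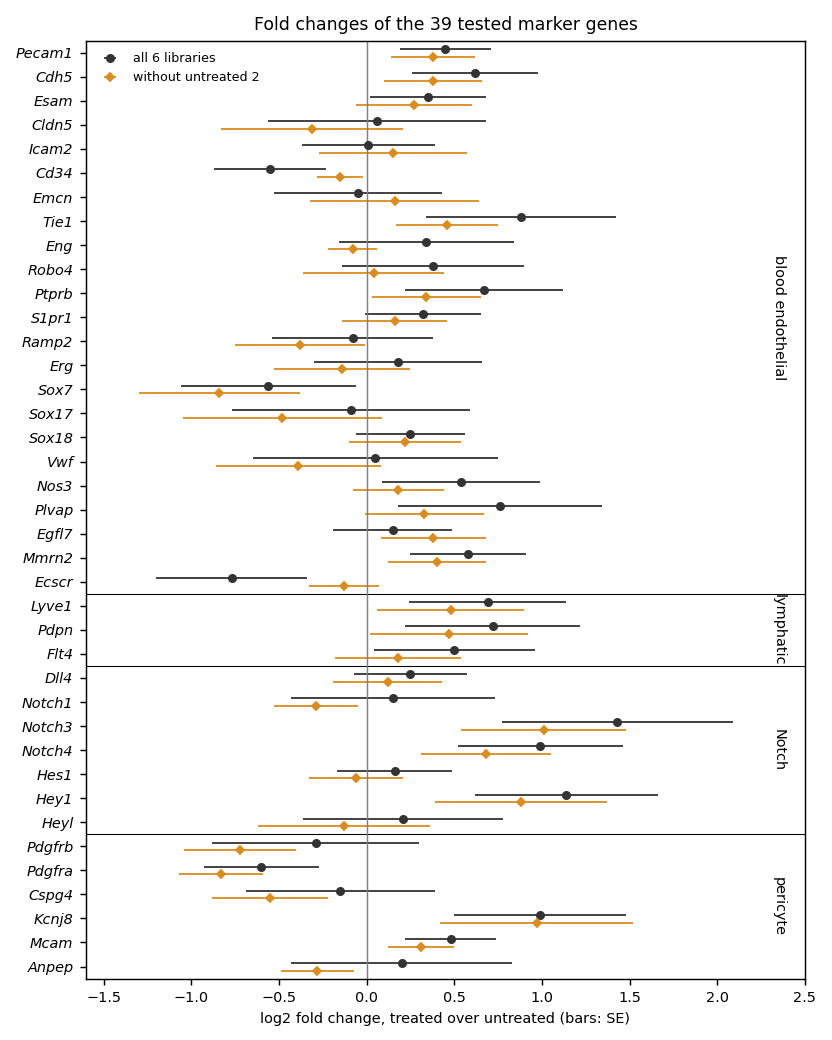
Log2 fold change (treated over untreated) of the 39 tested genes with SE bars from edgeR, over all 6 libraries (dark circles) and without untreated 2 (orange diamonds). No gene passed the adjusted threshold in either fit, and 13 of the 17 blood endothelial genes whose value lay above 0 moved towards 0 without untreated 2.

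The lymphatic label was only partly borne out. *Prox1*, which defines lymphatic endothelium, had 0, 0 and 0.124 CPM in treated 1, 2 and 3, against 0.151, 0 and 0 CPM in untreated 1, 2 and 3, and *Mmrn1*, another lymphatic product also stored in platelets, stayed at or below 0.249 CPM in treated and 0.605 CPM in untreated libraries. A count of 0 allows up to 0.368 to 0.669 CPM, depending on the library (3 counts, counting error only), so both genes were at or near the limit of detection. The other 3 genes are therefore named by their symbols. *Pdpn*, podoplanin, also made by fibroblasts, had 19.7, 27.1 and 29.7 CPM in treated 1, 2 and 3, against 7.87, 9.6 and 28.5 CPM in untreated 1, 2 and 3.

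*Lyve1*, a hyaluronan receptor shared with macrophages, had 10.5, 9.79 and 12.9 CPM in treated 1, 2 and 3, against 3.93, 4.69 and 11.8 CPM in untreated 1, 2 and 3. In *Pdpn* and *Lyve1* alike, untreated 1 and 2 were low and untreated 3 lay inside the treated range. The log2 fold changes were 0.72 ± 0.50 for *Pdpn* and 0.69 ± 0.45 for *Lyve1* (adjusted p 0.639 and 0.632), and they lay between 0.40 and 1.55 for *Pdpn* and between 0.40 and 1.37 for *Lyve1* over all alternatives run. *Flt4*, the receptor VEGFR3, averaged 4.3 ± 1.11 CPM in treated and 2.98 ± 1.43 CPM in untreated tumours (SD, n = 3 each). Keratinocyte genes, 6 in the list, summed to 4.22 to 65.1 CPM in treated libraries and to 1231, 583 and 5.4 CPM in untreated 1, 2 and 3, so the untreated libraries low in *Pdpn* and *Lyve1* were those with the highest keratinocyte sums. Of the 8 macrophage genes 7 had a fold change below 0, and their sum was 387 to 728 CPM in treated and 915 to 1556 CPM in untreated libraries. The part of either in these results was not tested.

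In the Notch pathway, receptors differed among themselves. *Notch1*, the main endothelial receptor and one used by many cells, had 16.1, 25.6 and 30.2 CPM in treated 1, 2 and 3, against 30.7, 5.36 and 28.1 CPM in untreated 1, 2 and 3. Its groups overlapped, with a log2 fold change of 0.15 ± 0.58 (adjusted p 0.933) and -0.29 ± 0.24 without untreated 2. *Notch3*, the receptor of pericytes and vascular smooth muscle, had 6.61, 20.9 and 22.6 CPM in treated 1, 2 and 3, against 7.87, 1.56 and 8.83 CPM in untreated 1, 2 and 3. Treated 2 and 3 were high, while treated 1 lay within the untreated range. The log2 fold change of *Notch3* was 1.43 ± 0.66 (adjusted p 0.592), the highest of all members, and 1.01 ± 0.47 without untreated 2 (adjusted p 0.298).

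*Notch4*, a receptor found mainly in endothelium, had 12.9, 21.2 and 24 CPM in treated 1, 2 and 3, against 7.56, 4.91 and 16.4 CPM in untreated 1, 2 and 3. Untreated 3 exceeded treated 1, so the groups overlapped, and the log2 fold change was 0.99 ± 0.47 (adjusted p 0.592), or 0.68 ± 0.37 without untreated 2. Set against *Notch1* in the same library, *Notch3* stood at 0.411, 0.819 and 0.749 of its CPM in treated 1, 2 and 3, against 0.256, 0.292 and 0.314 in untreated 1, 2 and 3. Of 6 ratios between members that were computed, this one and *Hey1* over *Hes1* did not overlap between the groups, and the other 4 did. *Hey1* stood at 0.742, 1.24 and 0.6 of the CPM of *Hes1* in treated 1, 2 and 3, against 0.325, 0.375 and 0.564 in untreated 1, 2 and 3. *Notch4* over *Notch1*, which overlapped, was 0.794 to 0.83 in treated and 0.246 to 0.917 in untreated libraries. The ratios were chosen after the values were seen and are given without a test. The share of ratios between other genes that do not overlap was not computed. In untreated 2 these 2 ratios rest on 7 counts of *Notch3* over 24 of *Notch1*, and on 6 of *Hey1* over 16 of *Hes1*.

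The ligand *Dll4* averaged 6.87 ± 0.842 CPM in treated and 5.74 ± 1.83 CPM in untreated tumours (SD, n = 3 each). Of the target genes, *Hey1* had 4.11, 8.3 and 3.73 CPM in treated 1, 2 and 3, against 1.97, 1.34 and 3.8 CPM in untreated 1, 2 and 3, where untreated 3 exceeded treated 3. Its log2 fold change was 1.14 ± 0.52 (adjusted p 0.592), and 0.88 ± 0.49 without untreated 2. All 3 treated libraries reached the level of the low-count filter (1.44 CPM) while untreated 2 lay below it, so this difference carries no support. *Hes1*, a target in many cell types, had 5.54, 6.67 and 6.22 CPM in treated 1, 2 and 3, against 6.05, 3.57 and 6.75 CPM in untreated 1, 2 and 3, with a log2 fold change of 0.16 ± 0.33 (adjusted p 0.866). The third target, *Heyl*, averaged 2.7 ± 1.33 against 2.26 ± 1.24 CPM. All 7 Notch genes had a fold change above 0 with all libraries and 4 of the 7 without untreated 2, which had the lowest value of the 6 libraries in each of the 7.

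The promoters of *Notch4*, *Notch3* and *Tie1* are shown because these genes had the highest fitted fold changes among the receptors of the set. Each is the stretch from 250 bases before to 50 bases after the gene start, as given by RefSeq on GRCm38.p6, read 5′ to 3′ on the strand of the gene. Capitals mark the letters AGGAAG or their reverse complement CTTCCT, which hold the GGAA core bound by ETS factors such as ERG.
*Notch4* (chr17:34564045-34564344, + strand): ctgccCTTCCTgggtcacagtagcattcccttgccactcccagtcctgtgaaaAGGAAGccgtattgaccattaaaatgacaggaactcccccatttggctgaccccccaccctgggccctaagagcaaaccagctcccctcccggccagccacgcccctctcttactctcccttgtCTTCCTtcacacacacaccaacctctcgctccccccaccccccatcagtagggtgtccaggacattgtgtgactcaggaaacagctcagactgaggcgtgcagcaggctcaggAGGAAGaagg
*Notch3* (chr17:32166841-32167140, - strand): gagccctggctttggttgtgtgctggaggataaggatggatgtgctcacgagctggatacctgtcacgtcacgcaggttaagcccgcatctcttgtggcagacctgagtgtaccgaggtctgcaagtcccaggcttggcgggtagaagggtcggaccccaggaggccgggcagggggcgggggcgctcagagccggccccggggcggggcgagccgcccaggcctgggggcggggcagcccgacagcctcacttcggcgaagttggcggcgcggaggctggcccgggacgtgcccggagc
*Tie1* (chr4:118489800-118490099, - strand): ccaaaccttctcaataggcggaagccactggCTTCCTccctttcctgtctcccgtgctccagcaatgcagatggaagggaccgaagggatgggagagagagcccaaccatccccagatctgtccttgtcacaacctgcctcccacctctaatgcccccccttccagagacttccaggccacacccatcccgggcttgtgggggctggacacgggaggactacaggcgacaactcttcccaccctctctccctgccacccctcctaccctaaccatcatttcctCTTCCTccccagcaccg
*Notch4* held 4 matches, *Tie1* 2 and *Notch3* 0. RefSeq windows were given for 21 of the 41 genes, 26 windows in all, of which 9 (34.6%) held a match on either strand, against 35.4% of all 32851 windows. With 3 or more matches there were 2 of the 26 windows (7.69%), against 1.9% of all windows.

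In the pericyte group 3 of the 6 fold changes lay above 0 and 3 below. The tumour line is itself of connective tissue, and its part in the levels of *Pdgfrb*, *Pdgfra* and *Anpep* was not tested. *Pdgfrb*, the receptor that holds pericytes to vessels, had 445, 555 and 221 CPM in treated 1, 2 and 3, against 689.7, 152 and 650.2 CPM in untreated 1, 2 and 3. *Pdgfra*, its relative on fibroblasts, had 319.7, 348 and 196 CPM in treated 1, 2 and 3, against 569, 290.1 and 449.7 CPM in untreated 1, 2 and 3. In both genes treated 3 was the lowest treated library, and only untreated 2 fell among or below the treated values. The log2 fold change of *Pdgfra* was -0.60 ± 0.33 (adjusted p 0.602). It was -0.83 ± 0.24 without untreated 2, where edgeR gave an unadjusted p of 0.00848 and an adjusted p of 0.227. *Pdgfra* was the 1 member with an unadjusted p under 0.05 in that fit, against 18.4% of all tested genes, or 8.85% when only lower values in treated tumours are counted. After adjustment the fit called 0% of genes. The log2 fold change of *Pdgfrb* was -0.29 ± 0.59 and, without untreated 2, -0.72 ± 0.32 (adjusted p 0.862 and 0.281).

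DESeq2 on the 5 libraries other than untreated 2, a fit added after the data were seen, called *Pdgfra* lower in treated tumours (log2 fold change -0.83, Benjamini-Hochberg adjusted p 0.0308), 1 of the 39 members against 2.13% of all tested genes in that fit and 1.23% called lower. Over all 17 alternatives its log2 fold change stayed between -0.87 and -0.37 and its adjusted p between 0.0308 and 0.966. With that library left out, 2 of the 39 members, *Pdgfra* and *Pdgfrb*, had each treated value below each untreated one, against 19.6% of all tested genes, or 39.2% for either direction. The macrophage and keratinocyte sums given above and those of 8 fibroblast genes, 18724 to 24308 CPM in treated and 21245 to 25929 CPM in untreated libraries, stand beside these values, and their part was not tested.

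The remaining genes of the group varied in sign. *Kcnj8*, a potassium channel subunit of pericytes, had 1.43, 4.35 and 3.73 CPM in treated 1, 2 and 3, against 1.66, 1.56 and 1.59 CPM in untreated 1, 2 and 3. Treated 2 and 3 lay above each untreated library and treated 1 below, with a log2 fold change of 0.99 ± 0.49 (adjusted p 0.592), and 0.97 ± 0.55 without untreated 2. *Mcam*, an adhesion molecule of pericytes and endothelium, averaged 39.2 ± 3.8 CPM in treated and 28.1 ± 8.78 CPM in untreated tumours (SD, n = 3 each). *Anpep*, the peptidase CD13 of pericytes, fibroblasts and myeloid cells, had 237, 354 and 214 CPM in treated 1, 2 and 3, against 327, 50 and 324 CPM in untreated 1, 2 and 3, so that its log2 fold change was 0.20 ± 0.63 over the 6 libraries but -0.28 ± 0.21 over the 5 other than untreated 2. *Cspg4*, the proteoglycan NG2, averaged 12 ± 0.908 against 13.2 ± 10.3 CPM, and its 24.5 CPM in untreated 1 and 4.46 CPM in untreated 2 bounded all other values.

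**Figure D3:**
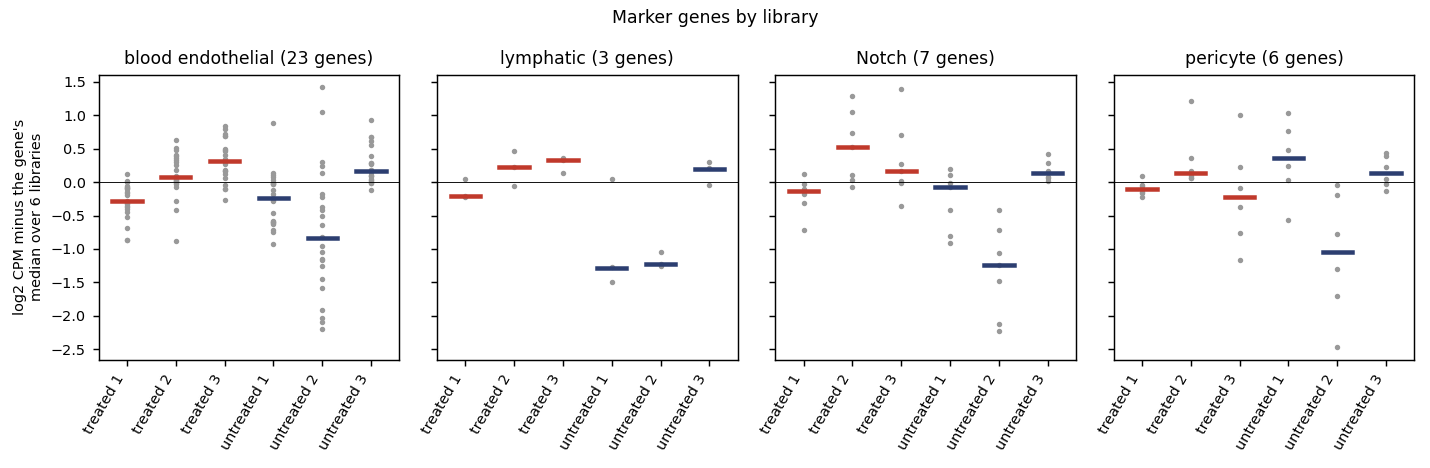
Log2 CPM of each tested gene minus its own median over the 6 libraries, as grey points, with the median of each group of genes as a bar (red treated, blue untreated). Untreated 2 is low in all 4 groups, and untreated 3 lies near treated 2 and 3 in the endothelial and lymphatic panels. The panel labelled lymphatic rests on 3 genes, *Pdpn*, *Lyve1* and *Flt4*.

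Single libraries stood out in the members, though not in the same way in each group. Untreated 2 was the lowest of the 6 libraries in 26 of the 39 tested genes (66.7%), against 39.6% of all tested genes. Treated 1 was the lowest treated library in 28 of the 39 (71.8%), against 30.9% of all tested genes. Untreated 3 was the highest untreated library in 25 of them (64.1%), against 27.5% of all tested genes. In the 23 blood endothelial genes these shares were 82.6% and 69.6%, but in the pericyte group they were 33.3% and 16.7%, and untreated 1 was the highest untreated library in 5 of its 6 genes. The median blood endothelial gene lay -0.28, 0.07 and 0.32 log2 units from its own median in treated 1, 2 and 3, against -0.24, -0.83 and 0.17 in untreated 1, 2 and 3. Genes of 1 cell type are not independent of each other, so these shares describe libraries and carry no test.

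The group medians moved with the library left out. The median log2 fold change of the blood endothelial genes was 0.25 over all libraries, 0.59 without untreated 3 and 0.07 without treated 3. That of the 7 Notch genes was 0.25, and 0.59 without untreated 3 and 0.12 without untreated 2. The pericyte group had 0.02, with 0.45 without untreated 1 and -0.42 without untreated 2. *Pdpn*, *Lyve1* and *Flt4* had a median of 0.69, with 1.37 without untreated 3 and 0.40 without untreated 1. Without untreated 3, 10 members had an unadjusted p under 0.05, all of them higher in treated tumours, against 13.2% of all tested genes in that fit, or 5.12% when only genes higher in treated tumours are counted. They were *Cdh5*, *Hey1*, *Lyve1*, *Mcam*, *Notch4*, *Pdpn*, *Pecam1*, *Plvap*, *Ptprb* and *Tie1*, and none passed the adjusted threshold of edgeR. In each of these genes untreated 3 was the highest untreated library, as in 27.5% of all tested genes. Leaving it out had to lower their untreated mean, so the count of members carries no support.

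Untreated 2 was low in most members, and more so in those with a GC-rich transcript. The median member in untreated 2 lay at -1.06 log2 units relative to the mean of the other 5 libraries, where the median of all tested genes with a GC value lay at -0.03. Across the 39 members the difference had a Pearson correlation of -0.527 with GC content, and across 12432 tested genes of -0.452. These are correlations across genes within 1 library, which are not independent replicates. Over 5 GC bins from the lowest to the highest, the median member lay at 0.83 (n = 2), -1.20 (n = 2), -0.58 (n = 8), -1.12 (n = 12) and -1.55 (n = 15), where all tested genes of the bin had 0.76, 0.19, -0.15, -0.42 and -0.76. The members' median was thus above that of all genes in the lowest bin, which holds *Cd34* and *Emcn*, and below it in the other 4. The part of GC content in these values was not tested.

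*Notch3* (-2.60), *Anpep* (-2.50), *Tie1* (-2.23) and *Plvap* (-2.21) were the farthest below the other libraries in untreated 2. *Ecscr* (1.49), *Cd34* (1.07), *Emcn* (0.58), *Egfl7* (0.43) and *Icam2* (0.32) were above them. *Col1a1*, the main chain of type I collagen, stood at 59.4 CPM in untreated 2, against 1975 to 4255 CPM elsewhere. With a trend in GC content and length removed from each library, the median log2 fold change of the 39 members was 0.15, and *Notch3* (1.01) and *Pdgfra* (-0.76) had an unadjusted p under 0.05 (0.0397 and 0.0141), against 12.6% of all tested genes in that fit.

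**Figure D4:**
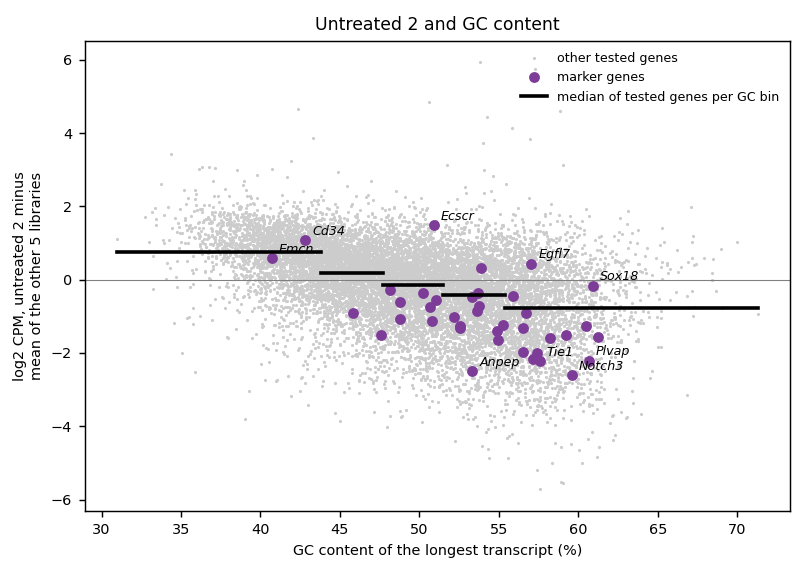
Difference in log2 CPM between untreated 2 and the mean of the other 5 libraries against the GC content of the longest transcript, for tested marker genes (purple) and other tested genes (grey), with the median of each of 5 GC bins as a black line. Most purple points lie below the line of their bin, while *Cd34*, *Ecscr* and *Egfl7* are among those above it.

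Further genes of the same cells and pathway, listed with earlier results of these data known, gave a mixed picture. Of 28 other endothelial genes 26 were tested. With all libraries 18 had a fold change above 0 and 8 below 0, or 17 and 9 without untreated 2. In 9 of the 26 each treated value lay above each untreated one, against 10.6% of all tested genes, and in 2 each lay below, against 10.2%. The 9 were *Flt1*, *Esm1*, *Gja4*, *Gja5*, *Ets1*, *Sele*, *Selp*, *Rasip1* and *Arhgef15*, and edgeR's adjusted test called 0 of the 26. *Sele*, the E-selectin that inflamed endothelium shows to leukocytes, averaged 1.71 ± 0.376 CPM in treated and 0.389 ± 0.145 CPM in untreated tumours (SD, n = 3 each). Its counts were 12, 11 and 12 in treated 1, 2 and 3, against 3, 1 and 4 in untreated 1, 2 and 3. It passed the filter on low counts through the treated libraries alone and had to be higher there, so no fold change is given. *Esm1*, *Gja4*, *Gja5* and *Selp* reached the filter's level in all 3 treated libraries but in only 1 or 2 untreated ones. They too passed because of the treated libraries, so for them and *Sele* the lack of overlap carries no support. *Flt1*, *Ets1*, *Rasip1* and *Arhgef15* reached that level in every library. *Esm1*, a secreted product of tip cells, averaged 6.71 ± 0.892 against 2.2 ± 2.13 CPM.

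In the other direction, *Aqp1*, a water channel of endothelium and other cells, had 77.9, 91.7 and 37.7 CPM in treated 1, 2 and 3, against 208, 168 and 144 CPM in untreated 1, 2 and 3, with a log2 fold change of -1.32 ± 0.35 (unadjusted p 0.00706, adjusted p 0.592) and no overlap of the groups. *Lmo2*, a cofactor of blood and endothelial transcription, averaged 6.03 ± 1.83 against 9.03 ± 3.1 CPM.

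Of 11 other lymphatic genes 7 were tested, 4 above 0 and 3 below, or 3 above and 4 below without untreated 2. *Foxc2*, a factor of lymphatic valves, averaged 3.18 ± 1.53 CPM in treated and 1.73 ± 0.748 CPM in untreated tumours, and the integrin *Itga9* 10.1 ± 1.91 against 6.39 ± 4.12 CPM (SD, n = 3 each). The lymphatic growth factors *Vegfc* and *Figf* averaged 13.4 ± 4.09 against 19.3 ± 4.25 CPM and 20.6 ± 3.92 against 24.2 ± 3.53 CPM. None had an unadjusted p under 0.05 in edgeR's test.

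Of 28 other Notch pathway genes 25 were tested, 14 above 0 and 11 below, with a median log2 fold change of 0.00. Without untreated 2, 6 lay above 0 and 19 below, with a median of -0.12. In that setting 8 of the 25 were lower without overlap, against 19.6% of all tested genes. *Nrarp*, a target that feeds back on Notch, had 3.22, 3.81 and 4.1 CPM in treated 1, 2 and 3, against 9.08, 6.69 and 4.42 CPM in untreated 1, 2 and 3. With all libraries its groups did not overlap, as in 3 of the 25 genes (with *Adam17* and *Psen2*), all lower in treated tumours, against 10.2% of all tested genes. *Nrarp* had a log2 fold change of -0.85 ± 0.36 (adjusted p 0.592), opposite in sign to that of *Hey1*. The ligand *Jag1* averaged 114 ± 23.1 against 87.1 ± 39.3 CPM and the gamma-secretase subunit *Aph1a* 128 ± 4.73 against 105 ± 36.7 CPM. *Snw1*, a Notch coactivator, averaged 86.2 ± 9.03 against 143 ± 98.3 CPM, with 257 CPM in untreated 2.

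Of 16 other pericyte genes 9 were tested, 7 above 0 and 2 below, or 6 above and 3 below without untreated 2. The untested ones were low in every library. *Foxd1* had 0 CPM, and the highest values were 0.622 CPM for *Higd1b*, 0.87 for *Cox4i2* and *Zic1* and 0.995 for *Vtn*. Those of *Gucy1b3* and *Pdgfd* were 1.86 and 2.11 CPM. *Abcc9*, the channel partner of *Kcnj8*, had 8.4, 15.2 and 19 CPM in treated 1, 2 and 3, against 6.35, 2.45 and 10.9 CPM in untreated 1, 2 and 3, with a log2 fold change of 1.09 ± 0.54 (adjusted p 0.592). As in *Kcnj8*, treated 2 and 3 lay above each untreated library. Treated 1 lay within the untreated range in *Abcc9* but below it in *Kcnj8*. *Pdgfa*, a ligand of PDGFRA, averaged 11.8 ± 1.19 against 8.55 ± 0.958 CPM without overlap (SD, n = 3 each). *Angpt1*, the angiopoietin that pericytes supply to endothelium, had 56.1, 49.9 and 28 CPM in treated 1, 2 and 3, against 66.9, 253 and 69.4 CPM in untreated 1, 2 and 3, and *Tbx18*, a factor of mural cells, 30.8, 28.8 and 26.1 CPM against 41.4, 53.8 and 38.2 CPM. The groups overlapped in neither, so 1 of the 9 tested genes of this list lay higher without overlap and 2 lower, against 10.6% and 10.2% of all tested genes. The log2 fold changes of *Angpt1* and *Tbx18* were -1.54 ± 0.58 and -0.64 ± 0.21 with all libraries (adjusted p 0.592 for both). Without untreated 2 they were -0.62 ± 0.26 and -0.49 ± 0.13, where *Abcc9* had 0.71 ± 0.38 and *Pdgfa* 0.55 ± 0.22. *Rgs5*, picked after its values were seen, had 0.72 ± 0.45 with all libraries and 1.19 ± 0.36 without untreated 2 (adjusted p 0.623 and 0.227). At an unadjusted p under 0.05 in edgeR's fit without untreated 2, 2 of the 9 were higher and 2 lower, against 18.4% of all tested genes for either direction.

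Marker genes of other cells varied between single libraries as well. Skeletal muscle genes, 6 in the list, summed to 20.2, 3.26 and 387 CPM in treated 1, 2 and 3, against 87.6, 33.7 and 17.1 CPM in untreated 1, 2 and 3. Platelet genes (platelets also hold the products of *Vwf* and *Mmrn1*) summed to 31.6 to 73.6 CPM in treated and 17.1 to 43.9 CPM in untreated libraries. Neutrophil genes summed to 34.4 to 83.8 CPM in treated and 13.5 to 41.8 CPM in untreated libraries, smooth muscle genes to 113 to 183 against 41.5 to 130 CPM, Schwann cell genes to 11.4 to 22.4 against 6.69 to 17.7 CPM and T cell genes to 0.715 to 3.23 against 1.79 to 6.35 CPM, with *Cd3e* at 0 in all 6. Adipocyte genes summed to at most 0.358 CPM in treated and to 1.47 to 5.8 CPM in untreated libraries. Their part in the values of the vessel markers was not tested.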

How the data were processed

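RNA was measured in 3 treated and 3 untreated tumours, grouped by sample title. The authors deposited a table of raw counts by gene symbol for each library, used unchanged. Per the labels' protocols, RNA came from Trizol and a strand-keeping kit, and the submitters' processing notes name TopHat and mm10. No source used here gives the counting program, its strand setting or its annotation.

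With edgeR 4.0.16 (R 4.3.3), filterByExpr at a minimum count of 10 kept 12517 of 23183 genes. Library sizes were scaled by TMM (factors 0.96 to 1.019), groups were compared with glmQLFit and glmQLFTest, 2-sided, and p-values adjusted by Benjamini-Hochberg over all tested genes, threshold 0.05. The SE is the log2 fold change divided by the root of F. The steps were tested on simulated data with the same spread in every library and large changes in genes of higher counts. That test does not measure the power for the members here. An exact permutation test of 3 against 3 cannot go below 0.1 and was not used. Deviations of libraries use log2 CPM with a prior count of 3. No 2 libraries agreed within sampling noise (chi-square per gene at least 5.64, where noise gives about 1). That closest pair was treated 2 with untreated 3, across the groups. Pairs of treated libraries had 11.7 to 15.6, and untreated 1 with untreated 3 had 10.1. GC content, length and exon overlaps come from GENCODE M21 (22148 symbols matched by name, 642 by synonym, values for 99.3% of tested genes).

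Alternatives were other scalings and filters, DESeq2 1.42.0, limma 3.58.1 with voom with or without sample weights, a replicate block, a GC and length correction (loess, span 0.3) and leaving out each library. DESeq2 without untreated 2 was added after seeing the data. The members and gene lists were chosen with earlier results of these data known. Sample values are given for members with an unadjusted p under 0.05 with all libraries or without untreated 2 and for the member with the highest CPM in each role. Of each further list the 2 genes with the smallest p per direction are named. All other genes with sample values were chosen after their values were seen.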

Additional observations from a re-analysis of the deposited data

How the results depend on the processing

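Over all tested genes edgeR called 0, and so did the other scalings and filters, limma-voom and the GC and length correction. DESeq2 called 57, limma-voom with sample weights 2, and DESeq2 without untreated 2, chosen after seeing the data, 273. Leaving out 1 library gave 0 to 4 calls, with 4 without untreated 3. Correlations of same-numbered samples were -0.182, -0.11 and 0.108, within the -0.217 to 0.24 of differently numbered ones. These values, each centred on a group of 3 libraries, cannot show or exclude a pairing by number. With the replicate as a block 0 genes were called. Of 652 member values under the alternatives, 594 kept direction and side of the threshold, 57 changed sign in 16 genes, and 1, *Pdgfra* in DESeq2 without untreated 2, newly passed the threshold. For the sign changes the cause was not tested.

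Log2 fold changes that changed sign were, with sample weights, *Cldn5* -0.22, *Emcn* 0.20, *Eng* -0.06, *Erg* -0.15, *Vwf* -0.53, *Notch1* -0.28, *Hes1* -0.06, *Heyl* -0.27 and *Anpep* -0.30. In DESeq2 without untreated 2 they were *Cldn5* -0.31, *Emcn* 0.16, *Eng* -0.08, *Erg* -0.14, *Vwf* -0.40, *Notch1* -0.29, *Hes1* -0.06, *Heyl* -0.13 and *Anpep* -0.28. With the GC and length correction they were *Cldn5* -0.03, *Emcn* 0.25, *Vwf* -0.24, *Dll4* -0.03 and *Notch1* -0.20. *Icam2* had -0.01 with DESeq2's size factors and -0.02 with upper quartile scaling, and limma-voom gave *Sox17* 0.04 and *Cspg4* 0.09. Under the replicate block *Cspg4* had 0.13.

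Leaving out each library in turn, the sign changed in *Cldn5* (-0.31 to 0.84), *Icam2* (-0.22 to 0.15), *Emcn* (-0.44 to 0.23), *Eng* (-0.08 to 0.62), *Ramp2* (-0.38 to 0.31), *Erg* (-0.14 to 0.45), *Sox17* (-0.48 to 0.64), *Vwf* (-0.43 to 0.61), *Egfl7* (-0.09 to 0.38), *Notch1* (-0.29 to 0.49), *Hes1* (-0.06 to 0.34), *Heyl* (-0.25 to 0.59), *Pdgfrb* (-0.72 to 0.01), *Cspg4* (-0.55 to 0.63) and *Anpep* (-0.28 to 0.51). A filter at a mean of 5 CPM left 28 members. With 3 tumours a group, the 95% intervals from all libraries span more than 1 log2 unit in every tested member. This includes highly expressed ones, such as *Pdgfrb* (-1.67 to 1.09), *Anpep* (-1.29 to 1.69) and *Cd34* (-1.30 to 0.20).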
